A study of Mus musculus with 9 samples.

Results

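Small RNA was sequenced from extracellular vesicles (EVs) of bronchoalveolar lavage fluid (BALF) in 9 pools, and 9 of the 299 miRNA hairpins in the resulting table are described here: mir-5102, mir-5105, mir-5109, mir-5115, mir-5097, mir-3096, mir-3096b, mir-1940 and mir-5126. They hold 72 of the 1308 entries, where an entry is a mature miRNA or an isomiR, a form of the miRNA with a shifted 5′ end. The mice were female C57BL/6J, 8 to 10 weeks old, and were exposed for 3 h to filtered air (FA), 1 ppm ozone (O3) or 2 ppm O3, with BALF collected the next day. Each exposure had 3 pools of different animals, and an FA pool held BALF of 4 mice where an O3 pool held that of 3 mice, so that pool size and O3 cannot be told apart. The labels name no transgene or deletion.

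The 9 hairpins were chosen by name with earlier results of these same pools known, for levels that were higher after O3 and for a doubtful annotation. Their levels in the O3 and FA pools are therefore a description, and so are the counts of entries past a threshold given further on, which support nothing about the hairpins. The name of the set holds only in part. Of the 9 hairpins, 5 (mir-5115, mir-5109, mir-5105, mir-5102 and mir-5126) were higher in every 2 ppm pool than in every FA pool, and the other 4 were not. Hairpins outside the set were too, such as mir-874, mir-92b and mir-375, whereas mir-149 and mir-760 were not. These 5 examples are no neutral sample. Leaving out mir-5126, they have the highest share of G and C bases among the 160 hairpins with a sequence and a mean level high enough to be fitted. The share of all 299 hairpins with this order was not counted, so nothing about the members is read from it. The annotation was doubtful in a plain sense: of the 299 hairpins 291 had a match by name in the RefSeq gene table of GRCm38.p6, and the 8 without one were the members other than mir-5126.

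An miRNA is cut from a hairpin-shaped precursor, first in the nucleus by Drosha and then in the cytoplasm by Dicer. Both enzymes cut at defined positions, so the reads of most miRNAs share 1 dominant 5′ end. That end sets the seed, bases 2 to 8, through which the miRNA recognises its target mRNAs, and a sharp 5′ end is one of the criteria by which an annotated hairpin is judged to be an miRNA. EVs are membrane-bound particles that cells of the airway release into the lining fluid and that carry small RNAs. No established function is attributed here to any of the 9 hairpins.

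Among the 9, RefSeq gave a sequence for mir-5126 alone, and it is printed with those of hairpins whose levels moved most like the members (mir-375, also among these, is named only) and with that of mir-2137, an abundant hairpin that also rose, so that their base composition and seeds can be compared. Capitals mark the seed, and the sequences are those of RefSeq with GRCm38.p6.
miR-5126: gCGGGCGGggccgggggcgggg
miR-2137: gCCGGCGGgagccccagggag
miR-22-3p: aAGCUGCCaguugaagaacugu
miR-24-3p: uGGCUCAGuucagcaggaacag
miR-29b-3p: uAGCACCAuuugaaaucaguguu
miR-126a-3p: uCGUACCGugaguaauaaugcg
The mature miR-5126 consisted of G and C only, the only such sequence among 460 mature sequences of the table's hairpins, whose median GC content was 47.6%. The next highest value was 85.7%, that of miR-2137. None of the printed miRNAs shared a seed with another. In GRCm38.p6 the mature sequences lie on chromosome 1 from 84695890 to 84695911 (miR-5126), chromosome X from 72992113 to 72992133 (miR-2137), chromosome 11 from 75463772 to 75463793 (miR-22-3p), chromosome 1 from 195037091 to 195037113 (miR-29b-3p, copy mir-29b-2) and chromosome 2 from 26591402 to 26591423 (miR-126a-3p), all on the plus strand. The sequence of miR-24-3p is encoded by 2 hairpins, on chromosome 13 from 63301251 to 63301272 (mir-24-1) and chromosome 8 from 84208875 to 84208896 (mir-24-2), also on the plus strand.

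In mm9, the build to which the authors aligned, the 77-base hairpin of mir-5126 had 1 exact match, on the plus strand of chromosome 1 from 84692414 to 84692490. Its GC content of 83.1% was the highest (rank 1) of 251 hairpins with a sequence. The annotation has an miRNA gene at exactly these bases (AC123882.1). It also has, on the opposite strand, an exon of Dner from 84692028 to 84692796, and the hairpin lies within the UTR part of that exon, from 84692304 to 84692796. Dner encodes a transmembrane ligand of the Notch family. The mature sequence itself matched exactly at 2 places of mm9, within the hairpin from 84692465 to 84692486 and on the minus strand of chromosome 9 from 101153873 to 101153894.

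The values are the authors' RPMMM, in which each pool's miRNA reads are brought to a common total, and a hairpin's level is the sum of its entries. mir-5115 had the highest level of the 9 hairpins. It was 848, 916 and 2078 RPMMM in the FA pools, 20774, 31109 and 11467 after 1 ppm O3 and 202715, 204508 and 163660 after 2 ppm. The 3 exposures did not overlap, and every 1 ppm pool lay between the FA and the 2 ppm pools. The log2 fold change from FA, on log2(RPMMM + 1), was 4.05 after 1 ppm and 7.33 after 2 ppm (SE 0.381 for each, n = 3 pools per exposure). The latter was the largest of the 192 hairpins with a mean above 50 RPMMM.

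mir-5109 was at 1470, 1507 and 1448 RPMMM in FA, at 15508, 18551 and 8615 after 1 ppm and at 48896, 50934 and 51514 after 2 ppm. mir-5105 was at 391, 317 and 373 RPMMM in FA, at 3827, 4525 and 2282 after 1 ppm and at 13002, 14121 and 10721 after 2 ppm. mir-5102, the least abundant of these, was at 81.1, 70.5 and 150.7 RPMMM in FA, at 899, 1223 and 377 after 1 ppm and at 4632, 3642 and 2777 after 2 ppm. In all of them the exposures were again ordered without overlap. The log2 fold changes after 1 ppm were 3.20 (SE 0.223) for mir-5109, 3.24 (SE 0.230) for mir-5105 and 2.96 (SE 0.434) for mir-5102. After 2 ppm they were 5.10, 5.12 and 5.23 with the same errors, and differed from each other by less than their SE. Beside these, the median over all 192 hairpins was -0.14 after 1 ppm and -1.05 after 2 ppm.

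mir-5126 behaved differently at the lower concentration. Its level was 209, 275 and 292 RPMMM in FA, 345, 871 and 373 after 1 ppm and 3169, 3069 and 3299 after 2 ppm. The exposures did not overlap, but 2 of the 3 pools at 1 ppm lay close above the FA pools. The log2 fold change was 0.91 after 1 ppm and 3.63 after 2 ppm (SE 0.322), so that most of the rise lay between the concentrations (2.72, SE 0.322).

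**Figure D1:**
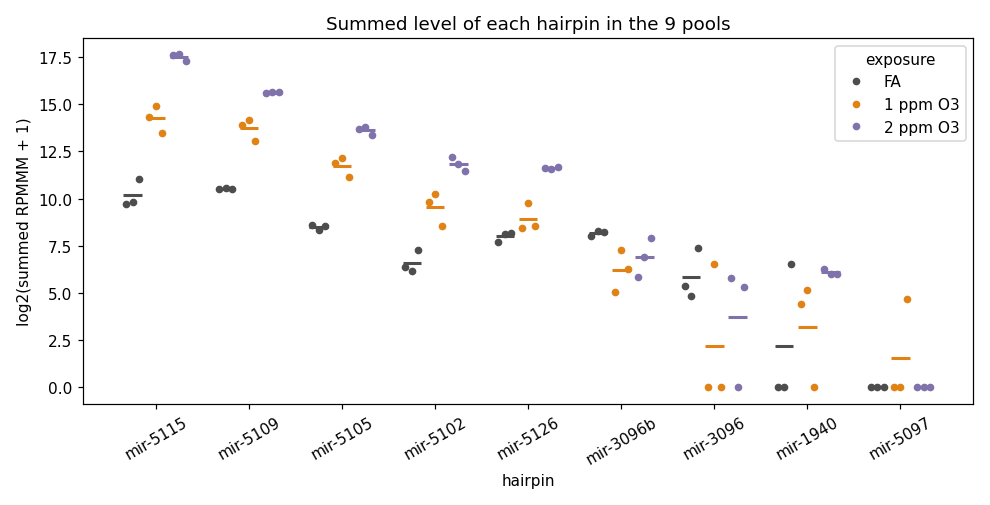
Summed level of each of the 9 hairpins on a log2 axis, log2(summed RPMMM + 1), with 1 point per pool and a bar at the mean of the 3 pools of an exposure. The exposures are separate and ordered for mir-5115, mir-5109, mir-5105, mir-5102 and mir-5126, while mir-3096b is lower in the O3 pools on this scale, though not in 2 ppm pool 3 when the total is taken without the 9 hairpins and mir-2137, and mir-3096, mir-1940 and mir-5097 are at 0 in some pools.

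The remaining 4 hairpins were low and did not rise together. mir-3096b was at 254, 315 and 296 RPMMM in FA, at 32.4, 152 and 76.7 after 1 ppm and at 56.5, 119 and 242 after 2 ppm, so that all 6 O3 pools lay below all 3 FA pools. The share of all hairpins with this order was not counted. Its log2 fold changes were -1.97 and -1.28 (SE 0.658), beside medians of -0.135 and -1.05 over all 192 hairpins. The value after 2 ppm ranked 115 of 192 from the highest, near the median. The O3 values stood on 17.0 to 84.5 estimated reads. With the total taken without the 9 hairpins and mir-2137, the value after 2 ppm was -0.42, and 2 ppm pool 3 (416 RPMMM) then lay above every FA pool (257 to 316 RPMMM). mir-3096 was at 39.6, 27.8 and 163 RPMMM in FA, was listed at 0 in 2 of the 3 pools after 1 ppm and in 1 of 3 after 2 ppm, and was at most 91.0 RPMMM in the O3 pools. By their names mir-3096 and mir-3096b are related hairpins, and how reads that match both were divided is not given in the sources used here. mir-1940 was listed above 0 in 1 FA pool (91.5 RPMMM), in 2 pools after 1 ppm (20.0 and 34.2) and in all 3 pools after 2 ppm (62.5 to 76.4). mir-5097 was listed in 1 pool only, at 24.4 RPMMM after 1 ppm. These levels stood on few reads, 17.6 to 23.0 estimated reads for mir-1940 after 2 ppm and 21.0 for the one value of mir-5097, and no direction is read from them.

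The 9 hairpins together took 0.329%, 0.343% and 0.489% of all miRNA reads in the FA pools, 4.14%, 5.66% and 2.32% after 1 ppm and 27.3%, 27.6% and 23.2% after 2 ppm. After 2 ppm mir-5115 alone took 16.4% to 20.5% and mir-5109 4.89% to 5.15%, whereas in FA pools 1 and 2 mir-5115 took less (0.0848% and 0.0916%) than mir-5109 (0.147% and 0.151%). mir-2137 took a further 18.7% to 20.3% after 2 ppm. Because each pool is scaled to the same total, the reads outside these hairpins and mir-2137 held 99.0% to 99.6% of the total in FA but 52.4% to 58.1% after 2 ppm. With the total taken without them, the log2 fold change after 2 ppm was 8.20 for mir-5115, 5.96 for mir-5109, 5.99 for mir-5105 and 4.50 for mir-5126.

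The pools differed in depth and in the levels of cell type markers in ways that accompany these values. The number of miRNA reads was estimated from the step between low values. It was 535533 to 773270 in FA, 555100 to 860965 after 1 ppm and 281542 to 300917 after 2 ppm. The step was searched only where it puts the lowest value above 0 near 10 reads. The 10.0 to 10.5 reads obtained for that value in every pool, and the read numbers, rest on this choice. The lowest value itself was 11.8 to 18.9 RPMMM in the FA and 1 ppm pools and 34.3 to 37.3 RPMMM after 2 ppm. All 7 airway epithelium markers were listed, and their summed level was 71015 to 79157 RPMMM in FA, 54976 to 59112 after 1 ppm and 32062 to 35356 after 2 ppm. The 3 leukocyte markers summed to 1431 to 2129, 1848 to 2362 and 1285 to 1463 RPMMM, the 3 red blood cell markers to 884 to 1822, 150 to 343 and 158 to 948, the 1 endothelial marker to 112 to 314, 445 to 938 and 764 to 912, and the 5 muscle markers to 235 to 6029, 146 to 217 and 0 to 179, in the same order, and no list was at 0 in all pools. The muscle list holds mir-1a-1 with mir-1a-2 and mir-133a-1 with mir-133a-2. Both hairpins of a pair had the same mean level (348.3 and 99.38 RPMMM), so the sum may count the same reads more than once. The part of the differences in depth and markers in the results was not tested.

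Among the 1 ppm pools, pool 2 was the highest and pool 3 the lowest for mir-5115, mir-5109, mir-5105 and mir-5102. Pool 3 was also the deepest, at 860965 estimated reads, and pool 2 the shallowest, at 555100, and the part of depth in this order was not tested. Counted in estimated reads rather than RPMMM, pool 3 was still the lowest for each of them, with 9873 reads of mir-5115 against 12484 and 17268. The FA pools had a different pattern. mir-5115 and mir-5102 were highest in FA pool 3, whereas the FA pools of mir-5109 were nearly alike. mir-2137, in contrast, was highest in FA pool 1, where it took 0.641% of reads against 0.0784% and 0.0793%.

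At the level of entries, 54 of the 72 had a mean above 50 RPMMM and were fitted by limma together with all 461 such entries of the table. Those that changed at least 2-fold and whose adjusted p was under 0.05 were counted as differentially expressed (DE). After 1 ppm 40 of the 54 were DE and higher, against 10.4% of all 461 entries. After 2 ppm 50 were DE and higher, against 14.3%, and between 2 and 1 ppm 32 were, against 11.3%. No member entry was DE and lower in any comparison. Since the hairpins were selected on these levels, and an entry passes the filter largely through the pools where it is high, nothing further is read from these counts. All 15 entries of mir-5115 were DE and higher in both comparisons with FA, while the 2 entries of mir-3096b were not DE in any.

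Ratios between hairpins within a pool do not depend on how the pool was scaled. The ratio of mir-5109 to mir-5105 was 3.76, 4.75 and 3.88 in FA, 4.05, 4.10 and 3.77 after 1 ppm and 3.76, 3.61 and 4.80 after 2 ppm. It showed no order by exposure, although both hairpins differed by over 5 on the log2 scale between FA and 2 ppm. The ratio of mir-5105 to mir-5102 lay between 2.48 and 6.05, also with overlap between all exposures. mir-5115 did not keep such a ratio. Relative to mir-5109 it was 0.577, 0.608 and 1.44 in FA, 1.34, 1.68 and 1.33 after 1 ppm and 4.15, 4.02 and 3.18 after 2 ppm. The 2 ppm pools lay above all others, and FA pool 3 lay within the range of the 1 ppm pools. These ratios are given without a test, since they come from the levels on which the hairpins were chosen.

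**Figure D2:**
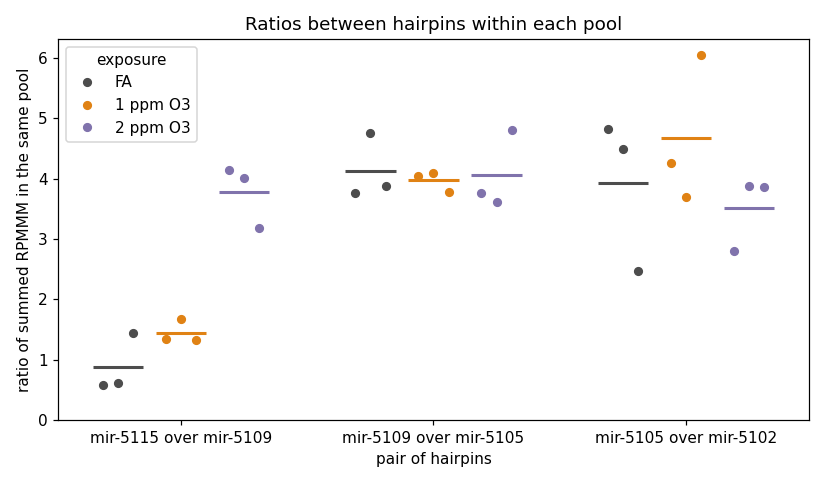
Ratio of the summed RPMMM of pairs of hairpins in the same pool, on a linear axis, with 1 point per pool and a bar at the mean of the 3 pools. The ratio of mir-5109 to mir-5105 stays between 3.61 and 4.80 in all pools, while that of mir-5115 to mir-5109 is 3.18 to 4.15 after 2 ppm and at most 1.68 elsewhere.

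The 5′ ends of 4 of the hairpins were spread more than in any other hairpin that could be ranked. The spread was measured as the effective number of entries, the exponential of the Shannon entropy of a hairpin's entries in a pool, which is 1 when all reads are in 1 entry. Entries from both arms of a hairpin were pooled, so in hairpins listed with both arms the number also counts the mix of arms. In mir-126, for instance, the leading entry held 57.7% but unshifted entries held 77.3%. The 4 hairpins are named without an arm. Averaged over pools it was 9.62 for mir-5105, 7.76 for mir-5115, 7.27 for mir-5109 and 4.68 for mir-5102, the highest 4 of 185 hairpins with a mean above 50 RPMMM that could be ranked, whose median was 1.47. The next was mir-322 with 3.24. mir-5126 had 2.22 (rank 30) and mir-3096b 1.68 (rank 68). Among well-known hairpins, mir-21 had 1.29 and mir-126 2.76, and mir-2137 had 2.50, so that its high level did not go with a spread like that of mir-5115. The spread was known when the hairpins were chosen and is a description.

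**Figure D3:**
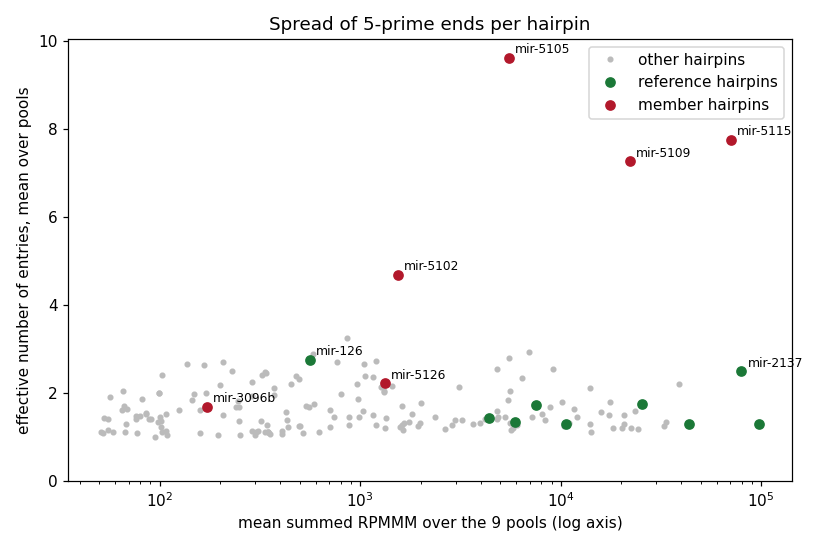
Effective number of entries per hairpin, with entries of both arms pooled, averaged over pools, against the mean summed RPMMM on a log axis, for hairpins with a mean above 50 RPMMM. mir-5105, mir-5115, mir-5109 and mir-5102 lie between 4.68 and 9.62, above every other hairpin plotted, whereas mir-5126 and mir-3096b lie among the rest.

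The unshifted end, the one of the annotated mature sequence, was not the main end of any of the 5 hairpins that rose when all pools were averaged. Entry names give shifts of up to 8 bases to either side, and which sign points towards the 3′ end is not given in the sources used here. The most abundant entry over all pools was shifted by -7 for mir-5115 and mir-5105, by -6 for mir-5102, by +4 for mir-5109 and by -1 for mir-5126. In mir-5115 the unshifted entry nevertheless exceeded that at -7 in 1 ppm pools 1 and 2 (5586 against 2856 RPMMM and 6726 against 5252 RPMMM). Unshifted reads made up 13.9%, 9.11%, 5.76%, 4.36% and 8.37% of mir-5115, mir-5105, mir-5102, mir-5109 and mir-5126, averaged over pools, against a median of 94.0% for the ranked hairpins. In mir-5102 the entry at -8, the last shift listed, held 30.9% ± 4.4 (SD, n = 3 pools) after 2 ppm, and ends beyond it were not analysed here. A shifted 5′ end moves the seed. For mir-5126, of the 7 seeds that begin 3 bases before to 3 bases after the annotated one, 5 were found in no mature sequence of the RefSeq table, the annotated seed being among the 5 when miR-5126 itself is left out.

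The listed 5′ ends of mir-5115 were not the same in FA and O3, but neither test given further on called the hairpin in its main fit. In FA the listed reads lay at shifts of -8 to -3 apart from 1 entry in pool 2. The split between -3 and -2 used here follows these FA values and is a description. The entry at -8, the last shift listed, held 45.9% ± 5.8 (SD, n = 3 pools) of the FA reads, and ends beyond it were not analysed here. The 9 entries at -2 to +6 summed to 0, 25.9 and 0 RPMMM in FA, and 8 of these 9 entries were listed at 0 in every FA pool. After 1 ppm the same entries summed to 10400, 14042 and 4737 RPMMM, or 50.1%, 45.1% and 41.3% of the hairpin, and after 2 ppm to 36.8%, 38.4% and 34.5%. The largest of them was the unshifted entry, listed at 0, 25.9 and 0 RPMMM in FA, at 5586, 6726 and 2065 after 1 ppm and at 37525, 40257 and 28379 after 2 ppm. The effective number of entries was 3.26 to 4.45 in FA, 10.4 ± 0.14 (SD, n = 3 pools) after 1 ppm and 8.67 to 8.96 after 2 ppm. This rise was not shared by all hairpins that rose. In mir-5109 the number was 7.75 to 8.92 in FA, 5.36 to 6.54 after 1 ppm and 7.18 to 7.78 after 2 ppm. It was higher than FA in every O3 pool for mir-5102 and mir-5126, while for mir-5105 the 2 ppm pools overlapped FA.

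The minimum, taken as about 10 reads, bears on such a comparison, since entries of a low hairpin drop out first. At the mean 1 ppm composition, the unshifted entry of mir-5115 would have been at 188, 203 and 461 RPMMM in the 3 FA pools. The lowest listed values there were 13.6, 13.6 and 18.9 RPMMM. In FA pool 1 the entries at +6, +5 and -2 would have been at 5.74, 11.7 and 5.88 RPMMM, below its lowest listed value. Those at -1 and at +1 to +4 would have been at 18.5 to 69.9 RPMMM in that pool. The part of the minimum in the difference was not tested.

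Whether the mix changed was tested for each hairpin as the balance of its leading entry, log2 of its level over that of its other entries, each plus 1, with limma over all hairpins. The leading entry was the most abundant one over all pools, so for the hairpins that rose the 2 ppm pools largely set it. For mir-5115 and mir-5105 it was the entry at -7, but their largest mean share in FA was at -8 and +6. For the other members tested, the leading entry was also the largest in FA. The choice can favour a higher balance after 2 ppm, and its part in the differences was not tested. The balance is a ratio, but it still depends on the hairpin's level, since small entries of a low hairpin are listed at 0. It also comes from the same contrast as the choice of the hairpins and is not independent evidence for them. Of the 6 members tested, 1 was called after 1 ppm and 1 after 2 ppm, against 1.66% and 3.59% of all hairpins tested, and none was called between 2 and 1 ppm, against 3.61% (31 of the 166 hairpins tested had an unadjusted p below 0.05 there). The member called was mir-5126 in both comparisons with FA. Its entry at -1 held 92.5%, 89.3% and 92.2% of the hairpin in FA, 69.0%, 65.4% and 73.6% after 1 ppm and 69.5%, 71.8% and 70.3% after 2 ppm. The FA pools lay above all O3 pools, and the O3 concentrations overlapped. The balance differed from FA by -2.18 (SE 0.225, adjusted p = 0.0041 from limma) after 1 ppm and by -2.10 (SE 0.225, adjusted p = 0.00245 from limma) after 2 ppm.

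For mir-5126 the minimum of about 10 reads lies close to the entries concerned. With the mean 1 ppm composition, its unshifted entry would have been between 17.9 and 25 RPMMM in the FA pools and the entry at +1 at 13.1, 17.3 and 18.3 RPMMM, against lowest listed values of 13.6, 13.6 and 18.9. When values below 40 RPMMM were set to 0 in every pool, the difference was -4.10 after 1 ppm (adjusted p = 0.377 from limma) and -6.61 after 2 ppm (adjusted p = 0.167 from limma), and no call remained.

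The other members were not called. For mir-5109 the balance of the entry at +4 was higher by 1.21 (SE 0.325, adjusted p = 0.182 from limma) after 1 ppm and by 0.88 (adjusted p = 0.171 from limma) after 2 ppm, and the entry held 16.6% to 29.8% of the hairpin in FA, 39.8% to 44.2% after 1 ppm and 35.4% to 36.1% after 2 ppm, without overlap between FA and O3. For mir-5105 the entry at -7 held 9.79% to 18.6% in FA, 21.8% to 27.4% after 1 ppm and 28.7% ± 1.1 (SD, n = 3 pools) after 2 ppm, and the balance was higher by 1.11 (SE 0.361, adjusted p = 0.402 from limma) and 1.40 (adjusted p = 0.139 from limma). For mir-5115 the entry at -7 held 23.0% to 30.8% in FA, 13.7% to 19.6% after 1 ppm and 23.7% to 26.8% after 2 ppm, so that FA and 1 ppm did not overlap, and the balance differed by -0.89 (SE 0.316, adjusted p = 0.437 from limma) after 1 ppm and by -0.14 (adjusted p = 0.822 from limma) after 2 ppm. For mir-5102 the balance differed by 1.19 and 1.84 (SE 1.39) and for mir-3096b by -0.013 and -2.03 (SE 3.07), with adjusted p-values from limma of 0.471 or more. In the FA pools mir-5102 rested on 54.5 to 80.7 estimated reads.

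The share of unshifted reads was tested as well, a measure chosen after these values were seen. It called no member, against 1.14%, 2.45% and 2.47% of hairpins tested after 1 ppm, after 2 ppm and between 2 and 1 ppm (17, 35 and 27 hairpins had an unadjusted p below 0.05). For mir-5115 the balance of unshifted to shifted reads was higher by 6.77 (SE 1.38, adjusted p = 0.0882 from limma) after 1 ppm, the largest difference of 176 hairpins, and by 6.46 (adjusted p = 0.0688 from limma) after 2 ppm, the second largest (rank 2) of 163. The unshifted entry was listed in 1 of the 3 FA pools, and that pool lay apart from the other FA pools in this balance. For mir-5126 the values were 3.23 (SE 1.17, adjusted p = 0.481 from limma) and 4.00 (adjusted p = 0.147 from limma), and for mir-5109 -1.91 (SE 0.462, adjusted p = 0.146 from limma) and -1.54 (adjusted p = 0.147 from limma).

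**Figure D4:**
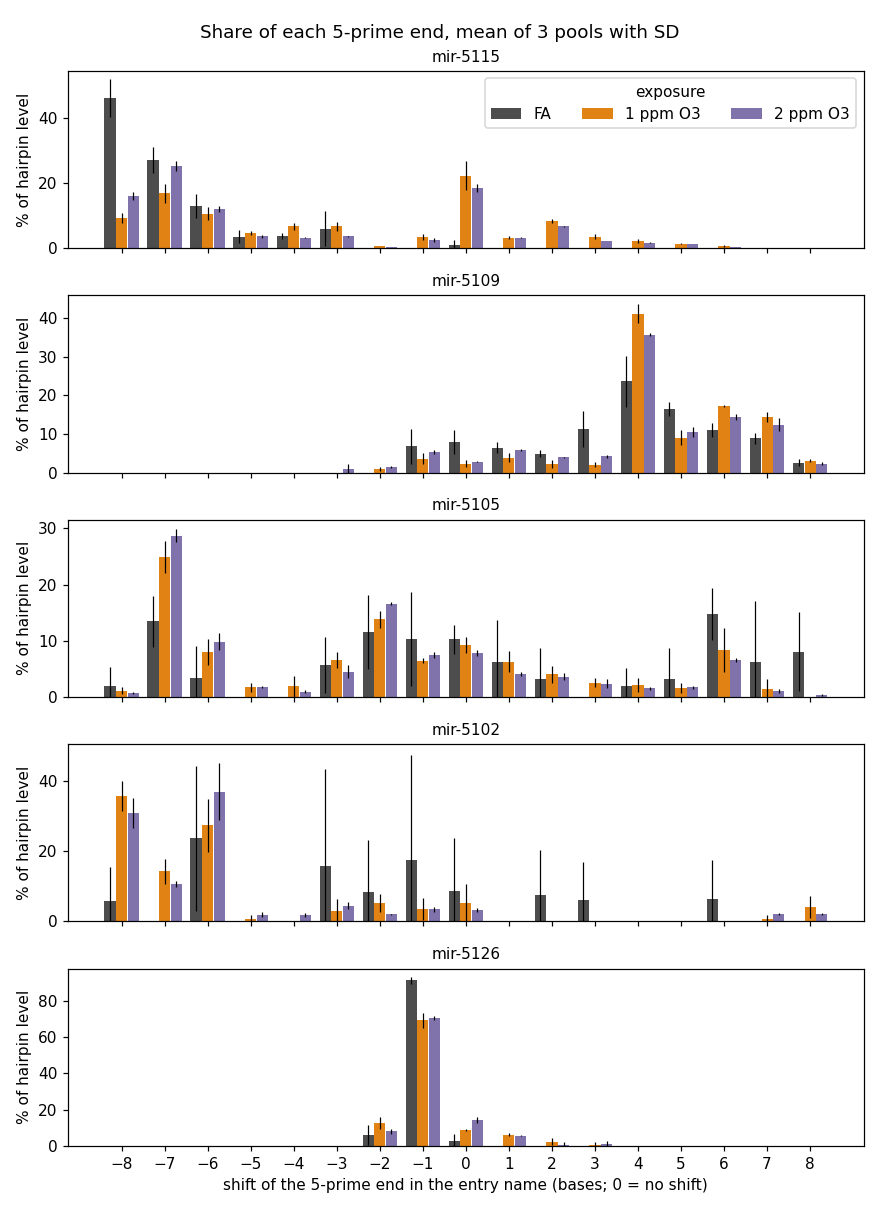
Share of each 5′ end in the level of the 5 hairpins that rose, as a percent of the hairpin (y axis) against the shift in the entry name in bases (x axis), with bars at the mean of 3 pools and lines for the SD. mir-5115 has almost no listed reads at shifts of -2 and above in FA and 34.5% to 50.1% there in the O3 pools, and mir-5126 keeps its main end at -1 in every exposure.

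The hairpins whose level was most like the mean of the 9 members over the 9 pools, by Pearson's r of log2 levels among 186 other hairpins, were mir-22 (0.91), mir-375 (0.86), mir-29b-2 (0.84), mir-24-1 (0.84) and mir-24-2 (0.84), and the median of all was -0.67. The points share libraries and a common total, and the pools form 3 exposures, so r is given as a description. Their differences were smaller than those of the 5 hairpins that rose. mir-22 was at a mean of 5070 RPMMM in FA, 6992 after 1 ppm and 10447 after 2 ppm, and mir-375 at 3468, 3353 and 5058. With the 5 hairpins that rose in place of all 9, a choice made after the data were seen, mir-22 was again first (0.98) and mir-2137 followed (0.94), before mir-24-2 (0.89), mir-24-1 (0.87) and mir-126 (0.85).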

How the data were processed

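The authors isolated EV RNA from pooled BALF, sequenced it as 50-base single-end reads, trimmed adapters, aligned to mm9 and, with miRquant, counted reads of miRNAs and of their isomiRs. The deposited values are RPMMM, RPM of miRNA reads, in 1 column per pool, each summing to the same total; read counts were not used here. Low values lay on the steps taken as 1 read for 68.5% to 83.7% of entries, too few to recover counts. No pair of pools was identical.

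Members and lists were chosen with earlier results of these data known. All 9 hairpins are named, with the 5 hairpins most like them. Entries or hairpin sums with a mean above 50 RPMMM were fitted as log2(RPMMM + 1) in 1 model of the 9 pools with limma 3.58.1 (R 4.3.3), variance trend and Benjamini-Hochberg adjustment. P-values set a difference against the spread between pools, moderated by limma over all rows fitted. The authors list a single exposure run for each O3 concentration, so the spread between O3 pools may hold no variation between runs. Single values of 3 pools against 3 allow no exact permutation p below 0.1, so none is given. Alternatives covered the pseudocount (10), filters, a floor of 40 RPMMM, scaling, the trend and each pool left out. Other parts used Python 3.11.15, numpy 2.4.6, pandas 2.3.3 and matplotlib 3.10.9.

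On simulated data for 2 ppm against FA, 200 of 461 entries and 40 of 183 hairpins were given 4-fold changes. The entry fit called 151 of the 200 changed entries and 1 of the unchanged entries. The balance fit called 15 of the 40 changed hairpins and 2 of the unchanged ones, so it misses many changes of that size. Of the 20 changed hairpins with low spread it called 14 (70%). The criterion set first, 80%, was met by the entry fit (115 of 115) and missed by the balance fit, and was then lowered to 60% for the balance; the fitting was not altered.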

Additional observations from a re-analysis of the deposited data

How the results depend on the processing

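No paired analysis was possible because the labels give the pools no shared numbers. The number of member entries called DE stayed within 1.5 times its value in every setting (32 to 40 after 1 ppm, 38 to 55 after 2 ppm and 26 to 43 between them), also without any 1 pool. The number tested changed with the setting, so nothing is read from these counts. After 2 ppm, 38 of 38 were called with means above 200 RPMMM, beside 47 of all 257 entries DE and higher. Without a filter 55 of 72 were called, beside 71 of all 1308 entries DE and higher. The median log2 fold change of the 5 hairpins that rose was 2.97 to 3.52 after 1 ppm and 5.03 to 5.99 after 2 ppm, the highest value, 5.99, and 3.03 between 2 and 1 ppm, coming with the total taken without the members and mir-2137. Counts of hairpins with a changed balance were less stable, and the cause was not tested. They were 3, 6 and 6 after 1 ppm, after 2 ppm and between 2 and 1 ppm, 1, 2 and 0 with 10 RPMMM added, and 2 and 2 in the last 2 comparisons with the floor of 40 RPMMM. With 1 pool left out they were 2 to 5, 3 to 12 and 4 to 12; leaving out 1 ppm pool 1 gave 5 and 11 in the comparisons with FA, leaving out FA pool 2 gave 3 after 2 ppm, and leaving out 2 ppm pool 2 gave 12 and 12 and 2 ppm pool 1 gave 11 between 2 and 1 ppm.

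mir-5126 was called against FA in 13 of 14 settings in each comparison (adjusted p from limma 0.00159 to 0.377 after 1 ppm and 0.00102 to 0.167 after 2 ppm), the exception being the floor. mir-5105 was called after 2 ppm only without FA pool 1 (1.69, adjusted p = 0.0332 from limma, of a range up to 0.512). Differences in balance that changed sign were never called. With 1 pool left out they ranged from -0.59 to 2.15 for mir-5102 after 1 ppm, from -2.87 to 2.80, -3.39 to 0.16 and -4.83 to 0.84 for mir-3096b in the 3 comparisons, and from -0.048 to 0.23 for mir-5126 between 2 and 1 ppm. With the floor, mir-3096b was at 2.61 after 1 ppm and mir-5126 at -2.52 between 2 and 1 ppm.

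The unshifted share of mir-5115, not called as reported, was called in 3 of 12 settings in each comparison with FA: with 10 RPMMM added (4.43 and 4.12, adjusted p = 0.0166 and 0.0251 from limma), with the floor (8.29 and 7.98, 0.00013 and 0.000161) and without FA pool 2 (8.55 and 8.24, 0.000179 and 0.00021), and its adjusted p reached 0.219 and 0.161 in others. That of mir-5126 was called only without FA pool 1 (4.77 and 5.53), and that of mir-5109 only after 1 ppm, with 10 RPMMM added (-1.96) and without FA pool 1 (-2.26). The other 3 members were called in none of 106 fits, of which 15 changed the sign. The minimum, taken as about 10 reads, limits every comparison of ends in low hairpins.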

Other observations

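The entry of mir-5109 shifted by -3 was listed at 1254 RPMMM in 2 ppm pool 3 and at 0 in the other 8 pools. In that pool it was above the value of about 37.3 RPMMM below which nothing was listed, and the neighbouring entry at -2 was at 796 and 812 RPMMM in the other two 2 ppm pools.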
